A study of Mus musculus with 6 samples.

Results

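The mitochondrial ribosomal protein genes carry the symbols Mrpl or Mrps followed by a number, for the large and the small subunit of the ribosome inside mitochondria. The rule that chose them reads gene names: every probe set with exactly 1 gene symbol of that form was taken, pseudogenes were left out, and a gene with several probe sets was read at the one brightest on average across the 6 arrays. This gave 77 genes, from 85 probe sets, among 19938 genes measured. Mrpl53 had a probe set that it shared with another symbol and was not analysed here.

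Expression was measured on Affymetrix Mouse Gene 1.0 ST arrays in sorted haematopoietic stem and progenitor cells with the surface markers cKit and Sca1 and no lineage markers, called KSL cells. The 3 DKO samples were of the genotype Runx1fl/fl;Runx3fl/fl;Mx1-Cre+, and the 3 WT samples came from Runx1fl/fl;Runx3fl/fl;Mx1-Cre- littermates, all on the C57BL/6 background after at least 3 generations of backcrossing. Both groups thus carried the floxed alleles of both Runx genes, and only the DKO group carried Cre, whose Mx1 promoter responds to interferon and is active in many cell types. The protocol gave mice 600 µg of pIpC, an interferon inducer, on 7 alternate days from 4 weeks of age, with the same text for both groups, whereas the sample descriptions call the cells untreated. Each WT sample was a pool of 3 mice, no source says whether DKO mice were pooled, and the design text counts 6 mice in all. What the deletions do and what Cre itself does cannot be told apart in this design.

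Mitochondria keep a small genome whose messenger RNAs encode core subunits of the respiratory chain and of ATP synthase. Those messages are translated by a ribosome built from mitochondrially encoded ribosomal RNA and proteins that are all encoded in the nucleus, made in the cytosol and imported. Some of these proteins descend from bacterial ribosomal proteins and others were added during the evolution of mitochondria. Haematopoietic stem cells are known to be sensitive to the rate of protein synthesis and to mitochondrial activity.

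All values are log2 signals, and a difference is DKO minus WT with the standard error (SE) of a limma fit over all 19938 genes. A gene is said to have risen or fallen where its Benjamini-Hochberg adjusted p over all genes was under 0.05. With 3 samples a group, the p-values measure only the spread between these samples, and the number of arrays limits the precision. Array medians lay between 5.88 and 5.91. The Runx1 signal was higher in the DKO samples, at 9.29 ± 0.08 against 8.47 ± 0.08 (SD, n = 3 each), with a difference of 0.82 (SE 0.089, limma adjusted p = 0.000427). That of Runx3 was 7.38 ± 0.03 against 7.53 ± 0.06, with a change of -0.15 that missed the threshold (adjusted p = 0.253). A gene-level signal also reads exons outside a floxed part, so it does not check the deletion, and every direction given here is that of the group labels. Kit, the receptor used in the sort, read 10.5 ± 0.20 in DKO and 9.75 ± 0.11 in WT.

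Of the 77 mitochondrial ribosomal protein genes, 14 fell in the DKO samples, 0 rose and 63 did not pass. The 14 made up 18.2% of the members, beside 7.69% of all genes tested that fell and 9.71% that rose. Their signals stood at 61.4% to 76% of the WT signal. The median difference over the 77 genes was -0.09, beside -0.04 over all genes, and 49 members had a negative difference. At an unadjusted p under 0.05, 24 members were lower and 5 higher, where 16% of all genes were lower and 15% higher. All DKO values lay below all WT values in 27 members and above them in 4, beside 19.6% and 16.2% of all genes. None of the members was among the dimmest 25% of probe sets on all 6 arrays. In sorted cells measured in bulk, fewer cells of a type and less RNA per cell cannot be told apart.

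**Figure D1:**
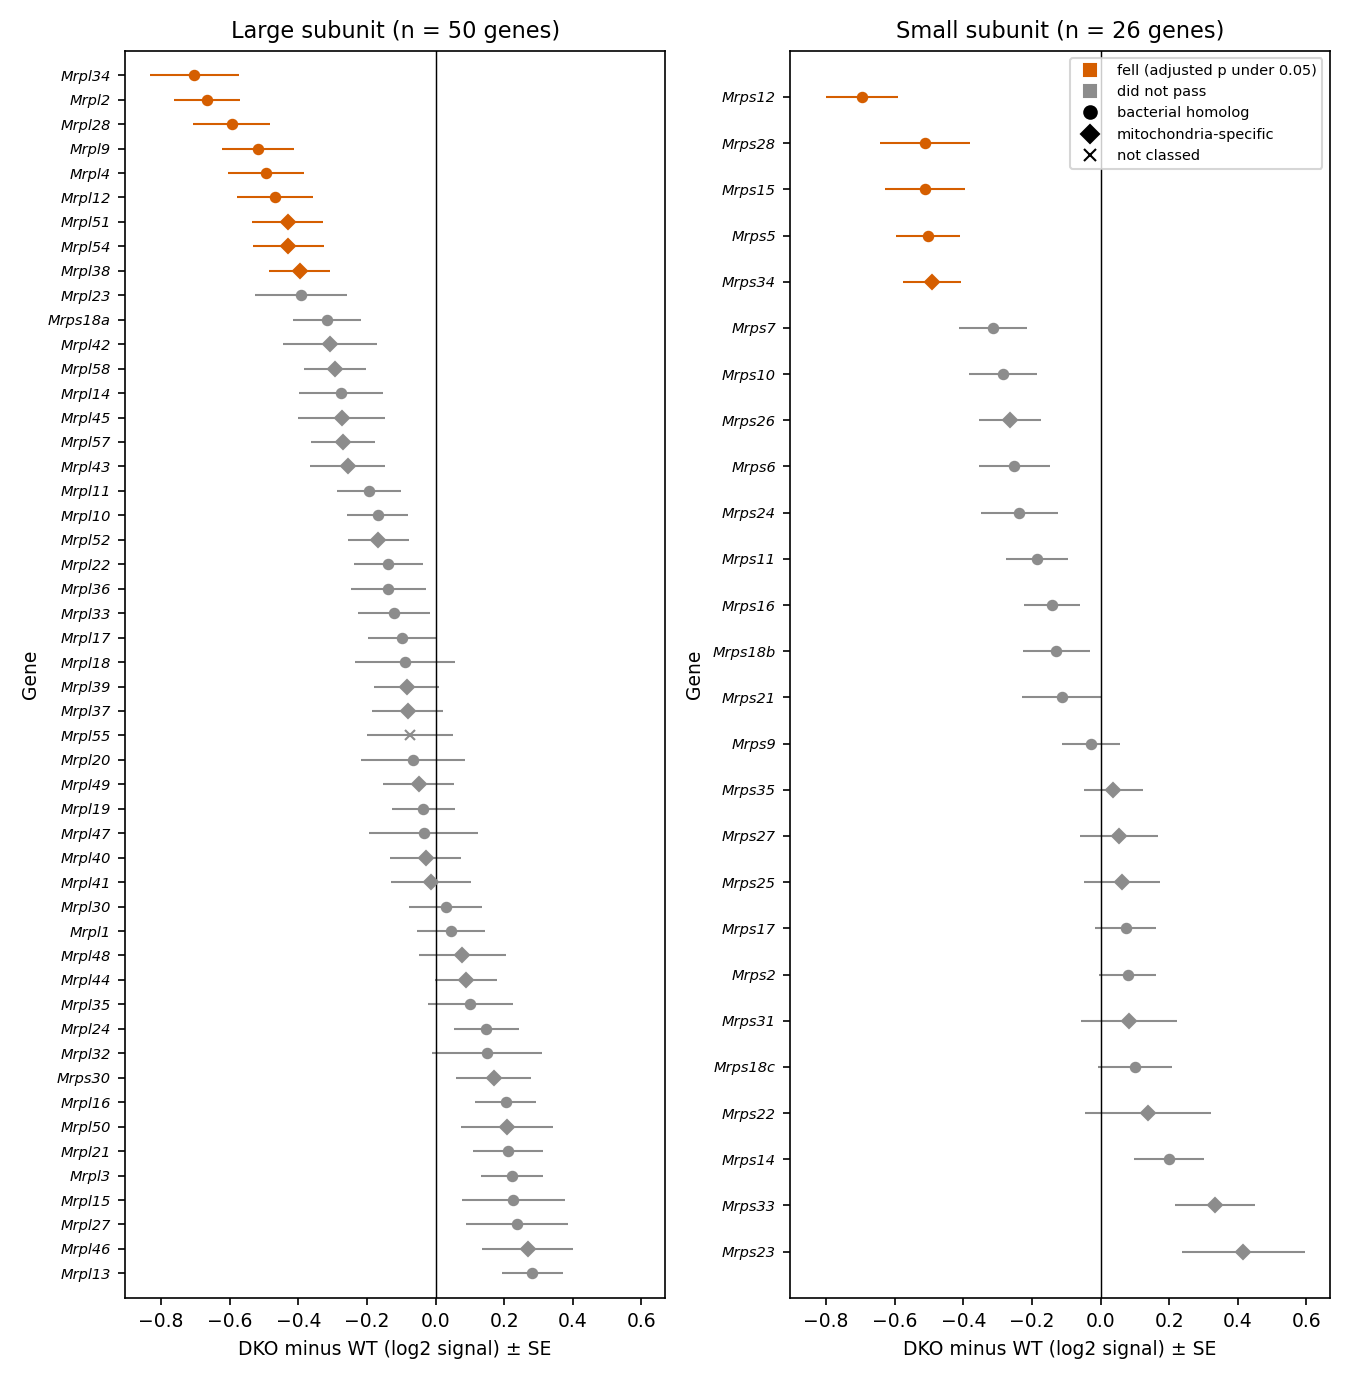
DKO minus WT difference in log2 signal (x axis) with the standard error of the fit, for each of the 50 large-subunit and 26 small-subunit genes, ordered by difference. Orange marks the 14 genes that fell, circles the genes with a bacterial homolog, diamonds the mitochondria-specific ones, and a cross the gene not classed. The genes that fell, -0.70 to -0.40, lie at the upper end of a continuous spread that reaches 0.42.

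In the large subunit, 9 of 50 genes fell and the median difference was -0.09. Mrpl34 (probe set 10572613), a small protein of the subunit core with a bacterial homolog, had the largest fall of the members. It read 7.75, 7.51 and 7.70 in DKO replicates 1 to 3 and 8.57, 8.41 and 8.09 in WT replicates 1 to 3. Every DKO value lay below every WT value, and the difference was -0.70 (SE 0.129, 61.4% of WT, limma adjusted p = 0.00561). Mrpl2 (10445565) is the counterpart of bacterial L2, which sits beside the peptidyl transferase centre where peptide bonds form. Its signals were 7.32, 7.39 and 7.50 in DKO and 7.99, 8.20 and 8.02 in WT. The groups were clearly apart, with a difference of -0.67 (SE 0.096, 63% of WT, limma adjusted p = 0.00174), the smallest adjusted p among the members.

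Mrpl28 (10442948), another homolog of a bacterial protein, read 7.40, 7.41 and 7.59 in DKO against 8.22, 8.10 and 7.86 in WT. The DKO values were again all lower, with a difference of -0.59 (SE 0.111, limma adjusted p = 0.00609). Mrpl9 (10494060), counterpart of the elongated bacterial protein L9, read 7.42, 7.39 and 7.23 against 8.03, 7.84 and 7.72. The values did not overlap, and the difference was -0.52 (SE 0.105, limma adjusted p = 0.00879). Mrpl4 (10583508) is the counterpart of bacterial L4, which lines the tunnel through which the new peptide leaves. It read 6.55, 6.56 and 6.67 against 6.90, 7.30 and 7.07, a difference of -0.49 (SE 0.112, limma adjusted p = 0.0148) with no overlap and a wider spread in WT.

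Mrpl12 (10383389) forms the L7/L12 stalk, the flexible arm that recruits translation factors to the ribosome. It read 7.43, 7.26 and 7.44 in DKO and 7.76, 8.05 and 7.73 in WT. The difference was -0.47 (SE 0.111, 72.3% of WT, limma adjusted p = 0.0179), without overlap. Mrpl54 (10371107), a mitochondria-specific protein at the stalk, read 6.90, 6.78 and 6.98 against 7.21, 7.49 and 7.24. Its difference was -0.43 (SE 0.105, limma adjusted p = 0.0209), again without overlap. Mrpl10 and Mrpl11, which anchor the stalk, were also below WT in every sample, but their differences of -0.17 and -0.19 did not pass (adjusted p = 0.229 and 0.194). In all 4 genes counted at the stalk the DKO values lay below the WT values, as in 19.6% of all genes. Their median difference was -0.31, and the stalk genes were not tested as a set.

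Of the 6 genes counted here at the central protuberance, the knob that faces the small subunit, 1 fell and the median difference was 0.02. The class may not hold every protein of that site. This was Mrpl38 (10393125), a mitochondria-specific protein that read 6.07, 5.92 and 6.02 in DKO against 6.45, 6.31 and 6.43 in WT. The difference of -0.40 (SE 0.089, 76% of WT, limma adjusted p = 0.0144) was the smallest of the falls, with no overlap. None of the 8 genes counted at the exit of the peptide tunnel passed, and their median difference was -0.09. Mrpl23 (10559233), the exit gene with the smallest p, read 9.02, 8.98 and 9.13 against 9.76, 9.30 and 9.25. These values did not overlap, but WT replicate 1 stood above the other WT samples, and the difference of -0.39 (SE 0.134) missed the threshold (limma adjusted p = 0.0749). It passed after quantile normalisation (0.0301) and after cyclic loess (0.0377). Mrpl45, which tethers the mitochondrial ribosome to the inner membrane, had a difference of -0.27 (adjusted p = 0.18) with overlapping groups.

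Mrpl51 (10475360), a mitochondria-specific protein of the large subunit, is the call that rests most on the probe set. The probe set used read 9.86, 9.78 and 10.04 in DKO and 10.19, 10.40 and 10.39 in WT, a difference of -0.43 (SE 0.103, limma adjusted p = 0.0191) without overlap. The 20 nearest probe sets by number belong to genes of another chromosome than that of Mrpl51. A second probe set (10541873), numbered among genes of its own chromosome, gave 8.12 against 8.22 in the mean, or -0.10, which missed the threshold (adjusted p = 0.641 over all probe sets). The fall of Mrpl51 is therefore given for that probe set alone.

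**Figure D2:**
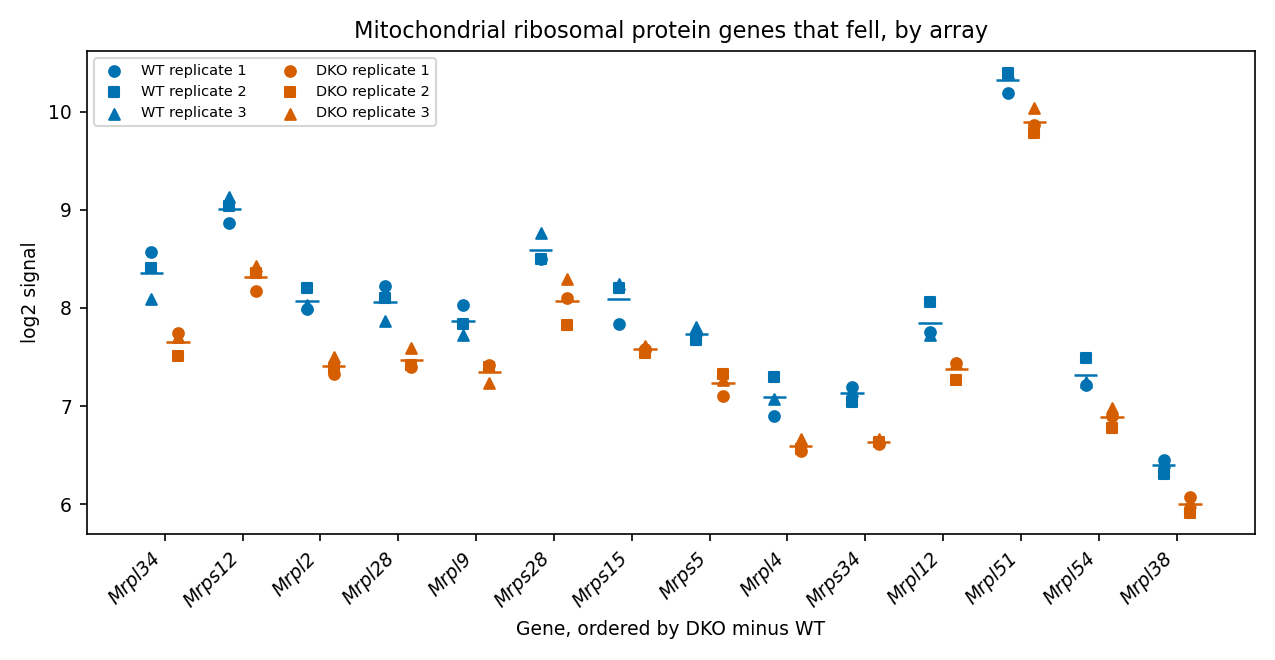
Log2 signal (y axis) of the 14 genes that fell, with 1 point per array, DKO in orange and WT in blue, and a bar at the mean of the 3 samples of each group. Marker shapes give the replicate number, and for every gene the 3 DKO points lie below the 3 WT points.

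In the small subunit, 5 of 26 genes fell and the median difference was -0.12. Mrps12 (10561513) is the counterpart of bacterial S12, a protein of the decoding centre where codon and anticodon are matched. It read 8.17, 8.35 and 8.42 in DKO and 8.86, 9.04 and 9.13 in WT. The highest DKO value stayed below the lowest WT value, and the difference was -0.69 (SE 0.106, 61.8% of WT, limma adjusted p = 0.0023). Mrps5 (10475830), counterpart of bacterial S5 near the channel by which messenger RNA enters, read 7.10, 7.33 and 7.27 against 7.73, 7.67 and 7.81. The difference was -0.50 (SE 0.093, limma adjusted p = 0.0058) without overlap. A second probe set of Mrps5 (10480379) gave -0.18, and with it the gene did not pass (adjusted p = 0.213).

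Mrps34 (10442638), a mitochondria-specific protein whose mutation causes a human mitochondrial disease, read 6.61, 6.63 and 6.67 in DKO against 7.19, 7.04 and 7.16 in WT. The DKO values lay within a narrow range below all WT values, and the difference was -0.49 (SE 0.085, limma adjusted p = 0.00423). Mrps15 (10508089), with a bacterial homolog that binds ribosomal RNA, read 7.58, 7.54 and 7.62 against 7.83, 8.20 and 8.24. Its difference was -0.51 (SE 0.116, limma adjusted p = 0.0151), with WT replicate 1 nearest to the DKO values. Mrps28 (10497209), which is named as the counterpart of bacterial S1, read 8.10, 7.82 and 8.29 against 8.49, 8.50 and 8.76. The groups did not overlap, but the DKO samples were spread widely, and the difference of -0.51 (SE 0.131) had the highest adjusted p of the falls (limma, 0.0255).

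By descent, 10 of the 47 members with a bacterial homolog fell, with a median difference of -0.13, and 4 of the 28 mitochondria-specific members fell, with a median of -0.04. The large subunit had 6 falls among its 30 genes with a bacterial homolog and 3 among its 19 mitochondria-specific genes, with medians of -0.09 and -0.08. In the small subunit there were 4 falls among 17 genes with a bacterial homolog, with a median of -0.18. The other 9 small-subunit genes, all mitochondria-specific, held 1 fall and had a median of 0.06. The difference between the classes was not tested. Mrpl55 was not assigned to a class. Mrps18a and Mrps30, which structures place in the large subunit, were counted there. Mrps36 keeps its symbol although the protein belongs to the oxoglutarate dehydrogenase complex, and its difference was 0.07 (adjusted p = 0.633).

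The 63 members that did not pass ranged from -0.39 to 0.42, and 24 of the 77 lay within 0.1 of 0. Standard errors of the members ran from 0.082 to 0.185, so a difference that small could not be told from 0 for a single gene. Just above the threshold, 7 genes with an adjusted p under 0.1 were lower: Mrpl58, Mrps18a, Mrps7, Mrps26, Mrpl23, Mrpl57 and Mrps10. Mrpl58, a peptidyl-tRNA hydrolase built into the large subunit that frees stalled peptides, came closest at 7.49, 7.51 and 7.51 in DKO against 7.67, 7.85 and 7.87 in WT. Its values did not overlap, and the difference was -0.29 (limma adjusted p = 0.0507). Mrpl58 passed as fallen in 8 of the 19 alternatives run at the threshold, Mrps18a in 7, Mrps7 in 4 and Mrps26 in 3, quantile normalisation and cyclic loess among them for each.

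On the other side, Mrpl13 (10428690), counterpart of bacterial L13, read 7.997, 7.933 and 8.005 in DKO and 7.77, 7.73 and 7.59 in WT. All DKO values were higher, by 0.28 in the mean (SE 0.088), and the limma adjusted p was 0.0547. It passed without the dimmest 25% of genes (0.0417), without the dimmest 50% (0.0333) and with array weights (0.0453). Mrps33 was higher by 0.33 (adjusted p = 0.0807), without overlap, at a probe set numbered among genes of another chromosome. Its probe set on its own chromosome gave 0.23. Mrpl16 and Mrpl3 were higher in every DKO sample by 0.20 and 0.22 (adjusted p = 0.153 and 0.125). Mrps23 had the largest positive difference, 0.42 (SE 0.18, adjusted p = 0.15), but at 8.13, 7.94 and 8.21 against 7.22, 7.82 and 7.99 its groups overlapped, and WT replicate 1 was far below the rest.

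More than 1 probe set was present for 8 members. Among these, only Mrpl47 had a sign that differed between them, at -0.03 and 0.00, with neither probe set near the threshold. For 5 members, Mrpl27, Mrpl41, Mrpl48, Mrpl51 and Mrps33, the probe set used was numbered among genes of another chromosome, and 4 of these had another probe set on their own. With the probe set of matching neighbours in place of the brightest, and without Mrpl48, 13 of 76 members fell, beside 7.64% of all genes. Mrpl51 was no longer among them.

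The members' levels also varied between arrays of 1 group. As deviations from each gene's mean over the 6 arrays, the median over the 77 members was -0.04, -0.11 and 0.02 in DKO and 0.03, 0.15 and 0.01 in WT, so the groups overlapped. WT replicate 2 was the highest of the 6 arrays for 31 members, and DKO replicate 2 the lowest for 23. Over the 14 genes that fell, the same medians were -0.26, -0.32 and -0.20 in DKO and 0.22, 0.35 and 0.25 in WT, a separation that their selection as fallen implies. Without DKO replicate 1 the count of falls was 9, and without DKO replicate 2 it was 7, beside 4.23% and 4.39% of all genes. Without WT replicate 2, 12 members fell and 3 rose, beside 6.83% and 9.24% of all genes. The 3 were Mrpl27 (0.42, adjusted p = 0.0261), Mrpl46 (0.43, 0.0181) and Mrps33 (0.45, 0.0215). The members' median then stood 0.01 above that of all genes, where with all arrays it was 0.05 below.

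Single arrays also decided single calls. Mrps28, Mrps15, Mrpl4, Mrpl51 and Mrpl54 missed the threshold without DKO replicate 1, and these 5 with Mrpl12 and Mrpl38 missed it without DKO replicate 2, with adjusted p between 0.0522 and 0.0825. Mrps28, Mrps15 and Mrpl51 missed it without WT replicate 3, and Mrpl54 and Mrpl51 without WT replicate 2. Mrpl34, Mrps12, Mrpl2, Mrpl28, Mrpl9 and Mrps34 stayed under the threshold in all 19 alternatives run at it. The other 8 lost the call in at least 1, and the sign was negative for all 14 in every alternative.

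Members were compact genes, with a median span of 7749 bases from first to last exon in the RefSeq annotation, against 17737.5 bases over all genes. The 14 that fell had a median span of 4039.5 bases and the others 8281. Of the 39 shorter members 11 fell (28.2%), and of the 38 longer ones 3 (7.89%), beside 7.69% of all genes. The share of fallen genes by span was not counted over all genes. Across the 77 members the difference rose with the logarithm of the span at a Spearman rho of 0.29, and across 19856 genes at 0.15. Genes share arrays and are not independent replicates, so these are descriptions. When a smooth trend over span and signal was removed from all genes, 16 members fell, beside 6.7% of all genes. The members' median stayed at -0.09.

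Several members start back to back with a neighbour on the other strand, so that both genes share a stretch of promoter. Partners were searched only for members with a promoter window in the RefSeq tables, 68 of the 77 and 9 of the 14 that fell. Of these 68 members, 24 had such a partner, with starts at most 500 bases apart. The share over all genes was not counted. Among the falls the pairs were Mrps12 with Sars2, Mrpl2 with Klc4 and Mrps5 with Zfp661. The stretches are shown because only the first-named gene of each pair passed the test, with that of Mrps11 and Mrpl46, where both partners are members, and the region before Mrpl12 as a fallen gene with no such partner. Each runs 5′ to 3′ on the strand of the first-named gene and ends just before its start. Capitals mark matches to the motifs named further on. They lie, in the order printed, at chr7:28741822-28741968 on the minus strand, and on the plus strand at chr17:46646080-46646220, chr2:127587176-127587425, chr7:78783089-78783130 and chr11:120484387-120484636, all in RefSeq's GRCm38.p6 tables.
Mrps12 and Sars2: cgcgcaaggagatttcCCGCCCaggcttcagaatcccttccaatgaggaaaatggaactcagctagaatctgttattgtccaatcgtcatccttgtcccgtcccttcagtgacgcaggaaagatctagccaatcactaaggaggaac
Mrpl2 and Klc4: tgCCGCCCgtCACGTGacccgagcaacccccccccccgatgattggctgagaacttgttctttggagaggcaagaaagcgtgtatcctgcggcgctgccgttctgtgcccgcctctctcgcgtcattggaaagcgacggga
Mrps5, nearest 250 of the 332 bases to Zfp661: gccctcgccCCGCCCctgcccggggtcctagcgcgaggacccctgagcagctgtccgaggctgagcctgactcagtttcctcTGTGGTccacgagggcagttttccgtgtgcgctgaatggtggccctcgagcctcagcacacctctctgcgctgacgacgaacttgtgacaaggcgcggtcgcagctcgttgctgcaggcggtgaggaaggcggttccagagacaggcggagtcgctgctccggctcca
Mrps11 and Mrpl46: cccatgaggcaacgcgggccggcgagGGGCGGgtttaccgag
Mrpl12: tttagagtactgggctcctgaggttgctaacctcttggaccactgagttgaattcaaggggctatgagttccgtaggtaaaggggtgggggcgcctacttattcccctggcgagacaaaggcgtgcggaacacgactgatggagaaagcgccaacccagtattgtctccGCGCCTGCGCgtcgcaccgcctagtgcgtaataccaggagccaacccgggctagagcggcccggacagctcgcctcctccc

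The starts of Mrps12 and Sars2, the gene of the mitochondrial seryl-tRNA synthetase, lie 147 bases apart. Beside Mrps12, with its difference of -0.69, Sars2 read 6.26, 6.37 and 6.17 in DKO and 6.10, 6.48 and 6.29 in WT. These values overlapped, and the difference was -0.02 (limma adjusted p = 0.906). Klc4, a kinesin light chain that starts 141 bases from Mrpl2, had a difference of -0.15 (adjusted p = 0.406), and Zfp661, a zinc finger gene at 332 bases from Mrps5, one of 0.11 (adjusted p = 0.472). Thus 0 of the 3 partners of fallen members passed, where 17.4% of all genes passed in either direction. The members of these pairs were chosen as fallen and their partners were not. Of the 19 measured partners of other members, 1 fell and 0 rose, beside 7.69% and 9.71% of all genes. That count takes Mrps11 and Mrpl46 each as the other's partner. The partner that fell was Eme1, a DNA repair endonuclease subunit, at -0.53 (limma adjusted p = 0.0457) beside Mrpl27 at 0.24 (adjusted p = 0.317). Mrps11 and Mrpl46, whose starts are 42 bases apart, had differences of -0.18 and 0.27, neither of which passed. Mrpl43 and Twnk, the mitochondrial DNA helicase gene, read -0.26 and -0.29. The difference within a pair was not tested.

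**Figure D3:**
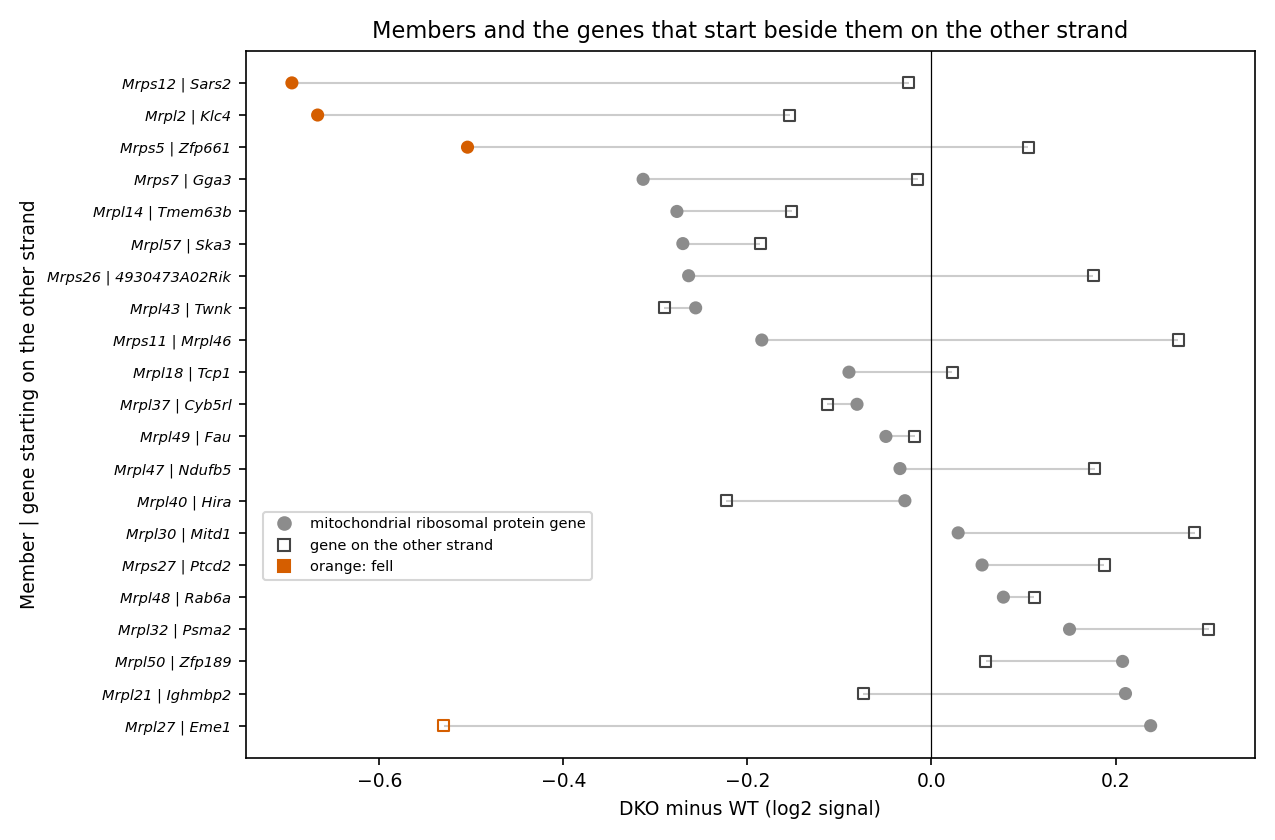
DKO minus WT difference in log2 signal (x axis) of members (filled circles) and of the gene that starts beside each on the other strand (open squares), 1 pair per row, with orange for genes that fell. The 3 fallen members on top have partners between -0.15 and 0.11.

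RefSeq promoter windows of 300 bases, 250 before the start and 50 after it, were found for 68 of the 77 members, including 9 of the 14 that fell. These windows were searched on both strands for 6 short motifs, and a match is a description of letters, not a binding site. The Runx core TGTGGT was in the windows of 9 members (13.2%), beside 16.4% of all tested genes with a window. Among the 9 fallen members it was found in the window of Mrps5 alone, in capitals above. The ETS motif CCGGAAG was in 25 members (36.8%), beside 13.6% of tested genes, and in 3 of the 9 fallen. The Nrf1 motif, GCGCA then any base then GCGC, was in 13 members (19.1%), beside 7.87%, and in 2 of the 9 fallen, Mrpl9 and Mrpl12, the latter printed above. The Yy1 motif AAGATGGCG was in 8 members (11.8%), beside 2.29%, and in 0 of the 9 fallen. The Sp1 motif GGGCGG was in 50% of members and 53% of tested genes, and was found in 5 of the 9 fallen. The E-box CACGTG was in 7.35% of members and 9.52% of tested genes, and in 1 of the 9 fallen, Mrpl2.

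Other genes of mitochondrial translation, transcription and biogenesis were read in 7 lists with 104 measured genes. Of these, 12 rose (11.5%, beside 9.71% of all genes) and 5 fell (4.81%, beside 7.69%), and the median difference was 0.03. Subunits of the same ribosome that carry other symbols were measured for 4 genes, of which 1 rose and 1 fell. Gadd45gip1, which encodes a mitochondria-specific large-subunit protein, read 6.84, 6.84 and 6.87 in DKO and 7.56, 7.64 and 7.48 in WT. Its values were far apart, with a difference of -0.71 (SE 0.085, 61.2% of WT, limma adjusted p = 0.000672), slightly beyond that of Mrpl34. Ptcd3, a small-subunit protein with RNA-binding repeats, went the other way, at 7.93, 7.86 and 8.06 against 7.35, 7.48 and 7.33. It rose 1.48-fold (difference 0.57, limma adjusted p = 0.00318) with no overlap. Chchd1 and Dap3, both of the small subunit, had differences of -0.18 and 0.07 and did not pass.

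Among 27 factors that assemble the ribosome or modify its RNA, 4 rose (14.8%) and 2 fell (7.41%), with a median of 0.08, and the other 21 did not pass. Eral1, a chaperone of the small-subunit ribosomal RNA, read 6.72, 6.92 and 6.82 against 6.15, 6.19 and 6.16 and rose 1.57-fold (limma adjusted p = 0.00121). Noa1, a GTPase needed for assembly, read 8.24, 8.19 and 8.13 against 7.61, 7.66 and 7.58 and rose 1.49-fold (adjusted p = 0.00185). Ddx28, an RNA helicase of large-subunit assembly, fell, at 6.06, 6.26 and 6.35 against 6.89, 6.84 and 7.55, or 54.7% of WT (adjusted p = 0.0091). Trub2, a pseudouridine synthase, fell as well, with a difference of -0.50 (adjusted p = 0.00466) and values of 6.13, 6.10 and 6.23 against 6.74, 6.58 and 6.65. None of these 4 genes had overlapping groups.

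Of 16 genes listed as translation factors, with Slirp, Lrpprc and Oxa1l counted among them, 2 rose and 0 fell, with a median of -0.00. The 2 were Mtfmt, which formylates the initiator methionine, at 0.32 (limma adjusted p = 0.0278), and Mtrf1, a release factor, at 0.40 (adjusted p = 0.0368). Mtfmt lost its call in 6 of the 19 alternatives and Mtrf1 in 7. The list of mitochondrial aminoacyl-tRNA synthetases, which load transfer RNAs, held 20 genes. It also counted the amidotransferase subunits Gatb, Gatc and Qrsl1, which are not synthetases. In this list Yars2 rose by 0.68 (limma adjusted p = 0.0187) and Vars2 had a difference of -0.41 (adjusted p = 0.0138), a fall. Each lost its call in 2 alternatives, all of them with 1 sample left out. The other 18 did not pass, and the median was -0.01. Of 18 genes of mitochondrial transcription and RNA processing, 3 rose and 0 fell, with a median of 0.26. Tfam, which packages mitochondrial DNA and activates its transcription, read 8.33, 8.29 and 8.34 against 7.79, 7.95 and 7.68. It rose 1.42-fold (limma adjusted p = 0.00561) without overlap. Mtpap, the mitochondrial poly(A) polymerase, rose 1.44-fold (adjusted p = 0.00951), and Mterf2 by 0.54 (adjusted p = 0.0246), a call lost in 4 of 18 alternatives.

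Of 17 regulators of mitochondrial biogenesis 1 rose and 1 fell. Ppargc1a, the coactivator PGC-1α, fell, with a difference of -0.51 (limma adjusted p = 0.0136), and Gabpb2, a subunit of an ETS-family factor complex, rose by 0.36 (adjusted p = 0.0214). Ppargc1a lost its call without DKO replicate 3, and Gabpb2 lost its own in 6 of 19 alternatives, the replicate block among them. Gabpa, Nrf1 and Yy1, whose motifs are among those searched in the promoters, had differences of 0.24, 0.29 and 0.18 and did not pass. Myc, a broad activator of ribosome genes, had a difference of -0.05 (adjusted p = 0.858). Of the messages encoded in mitochondria, 2 of 13 had a named probe set: the COX2 gene at -0.16 (adjusted p = 0.263) and the ND3 gene at -0.10 (adjusted p = 0.514). By number, 0% of the nearest probe sets of COX2 and 10% of those of ND3 belonged to mitochondrially encoded genes. Whether these 2 probe sets read the mitochondrial messages was not tested.

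**Figure D4:**
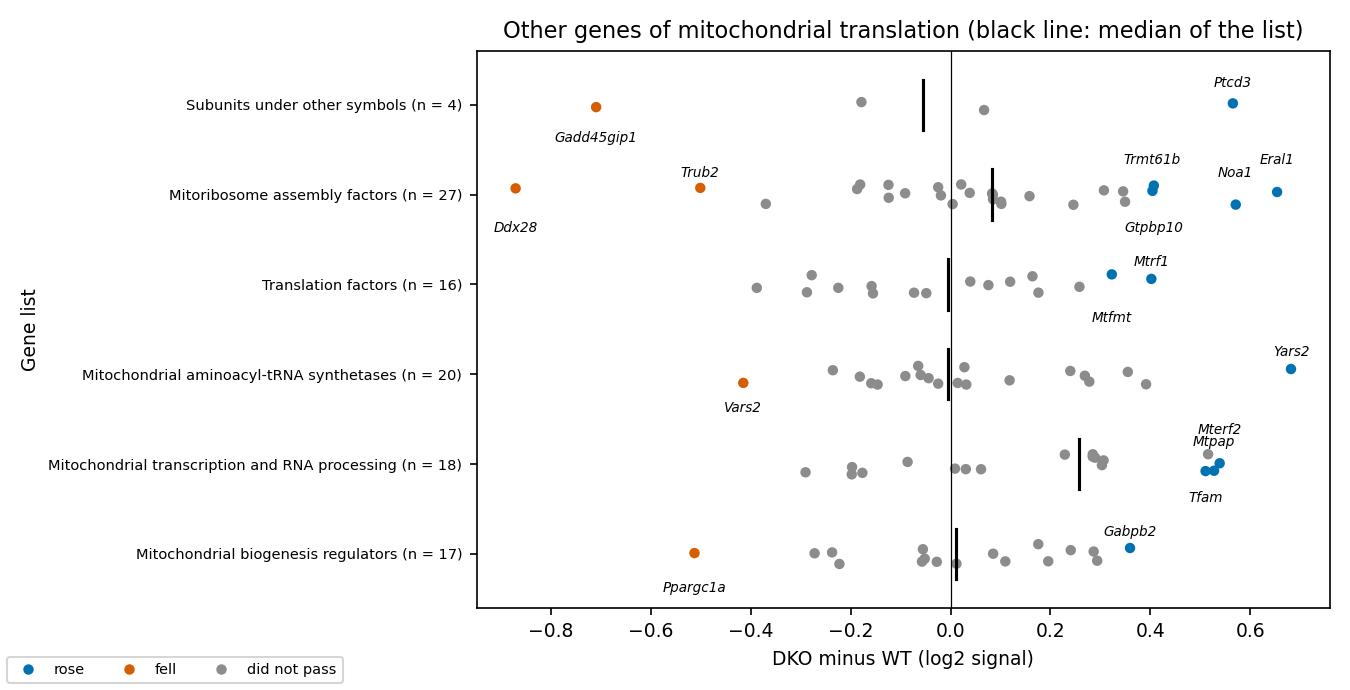
DKO minus WT difference in log2 signal (x axis) for genes of 6 lists of mitochondrial translation, transcription and biogenesis. Each gene is 1 point, with the vertical position inside a list arbitrary, and a black line marks the list's median. Blue genes rose, orange genes fell, and the list of transcription and RNA processing has the highest median, 0.26.

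The families most like the members were read from the same fit. Of 53 cytosolic ribosomal protein genes, whose products build the ribosomes of the cytosol, 1 rose (1.89%) and 3 fell (5.66%), with a median difference of -0.01. The falls were Rpsa, at -0.60 (limma adjusted p = 0.00116), Rps19 and Rpl41. Of 82 nuclear genes for subunits of the oxidative phosphorylation complexes, 5 rose (6.1%) and 16 fell (19.5%), with a median of -0.11. Among these, the largest fall was that of Cox6b2, at -1.12 (limma adjusted p = 0.000588). Uqcr11 of complex III, at -0.78 (adjusted p = 0.000829), and Ndufb7 of complex I, at -0.77 (adjusted p = 0.000683), fell as well. Ndufa9 of complex I rose by 0.58 (adjusted p = 0.00588). The share that fell was 18.2% among the members, near that of the oxidative phosphorylation genes, and 7.69% among all genes. Differences between the families were not tested.

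**Figure D5:**
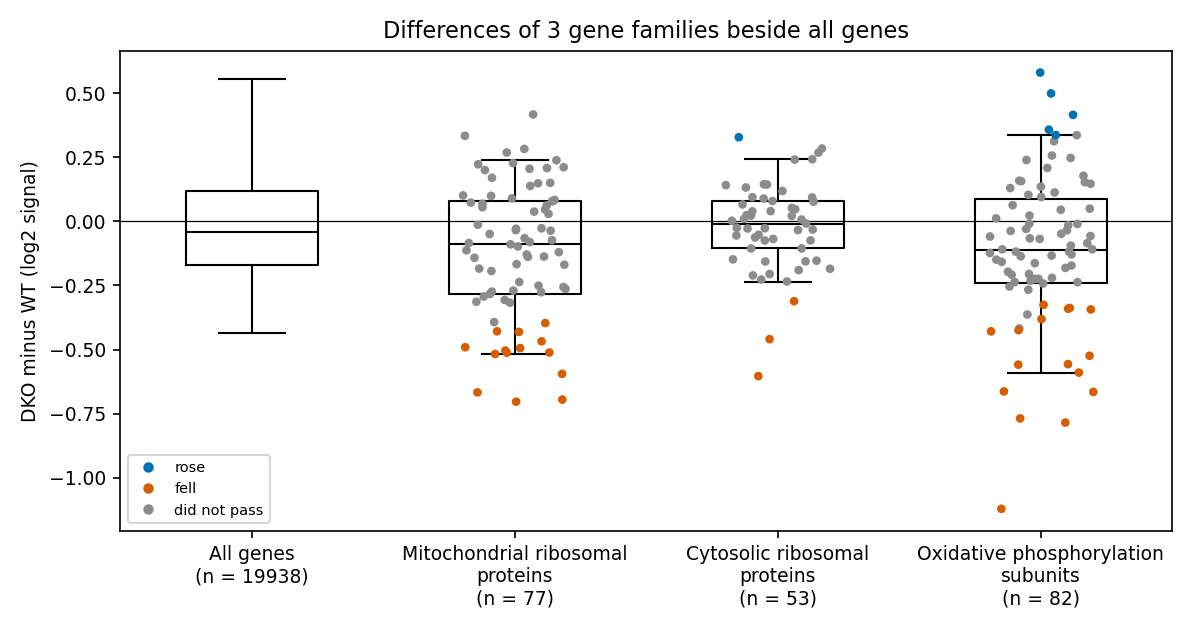
DKO minus WT difference in log2 signal (y axis) for members, cytosolic ribosomal protein genes, oxidative phosphorylation subunit genes and all 19938 genes, with boxes from the lower to the upper quartile, a line at the median and whiskers from the 5th to the 95th percentile. Points are single genes, drawn for the 3 families, and the medians are -0.09, -0.01, -0.11 and -0.04.

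Some markers of other cell types also differed between the groups, where 9.71% of all genes rose and 7.69% fell. The counts of these short lists were not tested against those shares. Levels are given as the log2 of the summed linear signal of each list, in which the brightest genes weigh most. Mast cell and basophil markers stood at 11.3 to 11.5 in DKO and 9.33 to 9.54 in WT, with 3 of 7 genes risen and 3 fallen. Cpa3, the brightest of them, read 10.96 in DKO and 7.54 in WT. Ms4a2 and Hdc rose too, whereas Mcpt8, Prss34 and Fcer1a fell. Megakaryocyte and platelet markers stood at 10 to 10.6 against 9.55 to 9.83 (3 of 6 rose, 0 fell). Gp5, at 8.85 against 6.05, Itga2b and Gp9 rose, whereas Pf4, Ppbp and Vwf had negative differences that did not pass. Erythroid markers were at 9.12 to 9.59 against 9.86 to 10.4 (2 of 6 fell, 0 rose), and B cell markers at 8.53 to 8.79 against 9.28 to 9.65 (2 of 7 fell, 0 rose). The erythroid falls were Car1, at 7.35 in DKO and 9.37 in WT, and Klf1. Those of the B cell list were Vpreb1, at 7.04 and 8.64, and Blnk. The other genes of both lists did not pass. Granulocyte and monocyte markers were at 11.3 to 11.9 in DKO and at 12.1 in each WT array (1 of 9 fell, 0 rose). The KSL list stood at 12.7 to 13 against 12.3 to 12.4, with 4 of 8 genes risen and 2 fallen. T and NK cell markers overlapped between the groups, at 7.6 to 7.74 against 7.56 to 7.79, and 0 of 7 passed. Endothelial and stromal markers, at 9.3798 to 9.49 in DKO and 9.23 to 9.3803 in WT, overlapped narrowly. The 1 of 7 that passed, Pdgfrb, fell. The part of these shifts in the differences of the mitochondrial ribosomal protein genes was not tested.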

How the data were processed

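Total RNA of sorted cells was amplified with NuGEN kits before hybridisation to 6 arrays, per the labels' protocols. Log2 signals per probe set were deposited. The sample titles name the gene-level RMA default, and the design text names MAS 5.0. The submitters' processing notes name Affymetrix Expression Console 1.0. No probe positions are printed, since the build of the array annotation was not given in the sources used here.

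Of 35556 probe sets, 21789 had 1 gene symbol in the platform annotation, 1621 several and 12146 none. The brightest probe set per gene was used, with no filter on dim signals. Groups came from the labels. No array duplicated another. limma 3.58.1 in R 4.3.3 (lmFit, eBayes, 5.52 prior and 4 residual degrees of freedom) was fitted to all genes, two-sided, and was tested on simulated data. No exact permutation test was run, as 3 against 3 samples cannot reach a p under 0.1. Percent of WT and fold are 2 to the power of the log2 difference.

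Named are all members past the threshold, members whose probe sets differ in sign, the best of each structural class without a call, up to 4 genes with the smallest p of each other list, and Runx1, Runx3 and Myc. Other genes named here, such as members near the threshold, partners at shared promoters and genes of the compared families, were chosen after their values were seen. Members and lists were chosen with earlier results of these data known. Alternatives covered normalisation, a trend over gene span and signal, filters, probe set choice, limma settings, a replicate block, single samples left out and the threshold. The choice of probe set by its neighbours was added after seeing the data: 10 probe sets on each side were read, and at least 50% had to lie on the gene's chromosome. Gene starts, spans and promoter windows are from RefSeq tables of GRCm38.p6, in which 19856 genes were found.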

Additional observations from a re-analysis of the deposited data

How the results depend on the processing

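The number of falls was 14 with the replicate block, with median centring, with a robust, trended eBayes or without DKO replicate 3. Over all genes 4.28% to 7.81% fell in these settings. The count of rises with the block was 0, beside 8.89% of all genes. Same-numbered DKO and WT samples did not deviate together (correlations -0.01, -0.10 and -0.04), so the numbers were not taken as pairs. Quantile normalisation gave 25 falls and a median of -0.18, and cyclic loess 21 falls, where 8.98% and 7.38% of all genes fell. At an adjusted p under 0.01, 7 members fell, beside 2.95% of all genes. Under 0.1, 21 fell and 2 rose, beside 11.5% and 12.6% of all genes. The count of rises was 1 with array weights and 1 after removing the dimmest 25% or 50% of genes. Over all genes 10.2%, 13.6% and 20% rose in these settings, in that order. With 1 sample left out, falls ranged from 7 to 16, rises from 0 to 3 and the median from -0.14 to -0.03. Over all genes 4.23% to 6.96% fell and 6.27% to 9.37% rose in those fits. The cause of these shifts was not tested. No called gene changed sign. Among single named genes, 63 values lost and 23 gained a call under an alternative, and 855 kept their side of the threshold. In the main fit the smallest fall called was -0.40, and no member with a difference from -0.39 to 0.42 passed. With 6 arrays and standard errors of 0.082 to 0.185, such differences of a single member were not told from 0.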
